A study of Mus musculus with 15 samples.

Results

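The genes described here belong to the mouse amino acid transporter families Slc1, Slc3, Slc7, Slc36, Slc38 and Slc43. Not every member carries amino acids itself (Slc43a3 and the heavy chain Slc3a2, below). Members were taken by name, and the families were chosen with earlier results of these data known. Every listed gene whose symbol starts with 1 of these family names and a digit was taken. Left out were 3 antisense or opposite-strand genes that carry a transporter's name (Slc7a6os, Slc36a1os and Slc36a3os). This gave 42 of the 54390 listed genes, of which 7 belong to Slc1, 2 to Slc3, 15 to Slc7, 4 to Slc36, 11 to Slc38 and 3 to Slc43. RNA was sequenced in bulk from BV2 cells, an immortalised mouse microglial line, either wild-type (WT, Trem2WT in the labels) or lacking Trem2 (Trem2-/-, Trem2KO in the labels), a lipid-sensing receptor of microglia and macrophages. The cells were kept overnight in medium alone (non-foamy) or with soluble cholesterol at 20 µg/ml (foamy), which gave 4 non-foamy and 4 foamy libraries of WT cells, and 3 non-foamy and 4 foamy libraries of Trem2-/- cells.

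Several features of the model bear on these genes. All groups grew in a medium supplemented with non-essential amino acids. The cholesterol was delivered with methyl-beta-cyclodextrin while non-foamy cells had medium alone, so the lipid and its carrier cannot be told apart. The Trem2-/- cells came from a single clone of Cas9-expressing BV2 cells that was transfected with a guide against Trem2, selected with puromycin and cloned by limiting dilution, so that the genotype and the history of the clone cannot be told apart. Whether the WT cells carried Cas9, and how many Trem2-/- clones were sequenced, is not given in the sources used here. Nothing in the labels says that the libraries of a group came from separate cultures, so the p-values below measure the spread between libraries, which may be technical.

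Amino acids cross membranes mainly through carriers, and these carriers work as a network. Some exchange 1 amino acid for another, some are driven by sodium or by protons, and some bring amino acids out of the lysosome, where the kinase complex mTORC1 reads their supply. The light chains of Slc7 (such as Slc7a5 and Slc7a11) reach the cell surface only when bound to a heavy chain, which in most cells is Slc3a2, also called CD98. Microglia and macrophages use the system for cystine uptake and glutamate release (Slc7a11), for arginine uptake (Slc7a1, Slc7a2) and for glutamine uptake (Slc1a5, Slc38a1, Slc38a2). Several of the genes, Slc7a11, Slc7a5, Slc3a2, Slc1a4, Slc1a5 and Slc38a2 among them, are known targets of ATF4, the transcription factor of the amino acid response.

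Sequences of 3 members are shown because they hold, near the start of transcription, letters of motifs known from amino acid, redox and lysosomal control, and because the transcripts of these 3 genes differed between the genotypes in different directions (below). Each is the RefSeq promoter on GRCm38.p6, from 250 bases before to 50 after the start, 5′ to 3′ on the gene's strand, with motif matches in capitals. The motifs searched, on both strands, were TGATGNAA (the core of the amino acid response element that ATF4 and its partners bind), TGACNNNGC (the core of the antioxidant response element) and CACGTG (an E-box, the centre of the lysosomal element bound by TFEB). The promoter of Slc7a11 (chr3:50443564-50443863, minus strand) holds TGATGNAA on the plus strand of the gene at position -66 and on the opposite strand at -47, counted from the start. That of Slc1a4 (chr11:20332664-20332963, minus strand) holds it on the opposite strand at -4. That of Slc36a1 (chr11:55204090-55204389, plus strand) holds E-boxes at -31 and -3, and TGACNNNGC from position 2, which shares 2 letters with the second E-box.
Slc7a11: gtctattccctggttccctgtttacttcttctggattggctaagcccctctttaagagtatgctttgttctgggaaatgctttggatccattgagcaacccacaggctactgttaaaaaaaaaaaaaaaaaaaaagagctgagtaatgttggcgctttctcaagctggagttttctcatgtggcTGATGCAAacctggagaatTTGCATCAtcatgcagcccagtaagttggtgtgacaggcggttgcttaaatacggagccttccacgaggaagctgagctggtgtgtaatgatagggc
Slc1a4: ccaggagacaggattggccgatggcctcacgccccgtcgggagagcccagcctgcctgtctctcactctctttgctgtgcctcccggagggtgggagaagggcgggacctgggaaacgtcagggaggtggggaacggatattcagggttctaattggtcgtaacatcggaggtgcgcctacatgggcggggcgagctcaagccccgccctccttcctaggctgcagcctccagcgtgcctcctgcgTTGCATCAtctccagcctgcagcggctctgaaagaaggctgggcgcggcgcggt
Slc36a1: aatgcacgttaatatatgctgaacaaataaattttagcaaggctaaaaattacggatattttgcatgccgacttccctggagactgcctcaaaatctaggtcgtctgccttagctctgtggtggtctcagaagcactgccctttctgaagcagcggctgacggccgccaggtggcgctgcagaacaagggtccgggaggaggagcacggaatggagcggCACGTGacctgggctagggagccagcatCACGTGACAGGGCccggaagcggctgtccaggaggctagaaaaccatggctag

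RefSeq promoters were matched for 31 of the 42 members. Among the 20 of these that were also tested, TGATGNAA was found in Slc1a4, Slc7a11 and Slc7a7, and it is found in 4.51% of all 27025 genes with a promoter in the same table. TGACNNNGC was found in Slc36a1, Slc38a2, Slc7a1 and Slc7a6, against 14.0% of all genes. The E-box was found in Slc36a1, Slc38a7 and Slc7a14, against 8.09% of all genes. A match describes the letters in this window and is not a measured site.

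Depth ranged from 23538963 to 41683825 counts per library, of which the 42 members took 0.0959% to 0.134%. Trem2 itself was at 214 to 232 CPM (counts scaled to library size) in the 7 Trem2-/- libraries and at 327 to 415 CPM in the 8 WT libraries, so every library matched its label in direction, although a count of reads does not show the edited bases. The line expressed 11 of 11 microglia and macrophage markers that were checked, with Cx3cr1 lowest. Their summed level was 5561 to 5816 CPM in Trem2-/- libraries against 4024 to 4980 CPM in WT libraries. Cd68 and Tyrobp had the highest means of the list (1449 and 1496 CPM over all libraries). Within each treatment, 7 of the 11 were higher and 2 lower in Trem2-/- cells at an adjusted p under 0.05 (43.6% and 30.2% of all tested genes in either direction). Cx3cr1 and Trem2 had lower means in Trem2-/- cells. Markers of astrocytes, oligodendrocytes, neurons, stroma, endothelium and lymphocytes summed to 1.04 to 2.75 CPM in every library, and 13 of those 15 genes were too low to test. In all, 3 libraries stood apart on the second principal component of all tested genes (10.4% of the variance): WT non-foamy replicate 3, which was also the shallowest, Trem2-/- foamy replicate 4 and WT foamy replicate 1. WT non-foamy replicate 3 was the lowest of its group for 16 of the 26 tested members and Trem2-/- foamy replicate 4 for 14 (and the highest for 8), while WT foamy replicate 1 was the highest of its group for 12. Such counts were not particular to these libraries, since WT non-foamy replicate 4 was the highest for 13 and WT foamy replicate 3 the lowest for 13. Because of their place on the second component, results that rest on these 3 libraries are given with and without them.

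Of the 42 members, 26 passed the filter on low counts (at least 10 counts, scaled for depth, in about as many libraries as the smallest group) and 16 did not. Of those 16, 11 had 0 counts in all 15 libraries: Slc1a6, Slc1a7, Slc7a4, Slc7a9, Slc7a10, Slc7a12, Slc38a3, Slc38a5, Slc38a8, Slc38a11 and Slc43a1. The other 5 (Slc1a1, Slc1a3, Slc3a1, Slc7a3 and Slc7a13) never exceeded 14 counts in a library. The untested members included glutamate transporters typical of neurons and astrocytes (Slc1a1, Slc1a3, Slc1a6) and kidney and gut carriers (Slc3a1, Slc7a9). Per length (RPKM, which is CPM per kilobase of exon), the highest level over all libraries was that of the heavy chain Slc3a2 at 34.5, followed by the sodium-coupled Slc38a2 at 26.7, the glutamine exchanger Slc1a5 at 22.2, Slc43a3 at 14.9, Slc36a4 at 13.0, Slc7a6 at 12.7 and Slc38a10 at 10.3. The lowest 7 tested members were below 1 RPKM.

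The first comparison asked how loss of Trem2 changed these transporters in cells without added cholesterol. Among the 26 tested members, 11 were higher and 7 lower in Trem2-/- than in WT non-foamy cells (edgeR's quasi-likelihood test, adjusted p under 0.05 over 14237 genes). That is 69.2% of the members, against 43.6% of all tested genes (21% higher and 22.6% lower). The second asked the same of foamy cells, where 8 members were higher and 6 lower, or 53.8% against 30.2% of all tested genes (14.3% higher and 15.9% lower). The 8 that were higher in both comparisons were Slc36a1, Slc36a2, Slc36a4, Slc38a6, Slc38a9, Slc7a7, Slc7a11 and Slc43a2. The 5 that were lower in both were Slc7a5, Slc7a1, Slc1a4, Slc38a1 and Slc43a3, and none changed in opposite directions. With a log2 change of 1 or more in either direction as a further condition, 4 members passed in each comparison, where the background was 6.18% and 2.87%. The libraries were fully separated by genotype for 19 members in medium alone (background 46.1%) and for 13 with cholesterol (background 28.8%). Without the 3 libraries that stand apart, 20 and 15 members were called, beside 50.4% and 32% of all genes. The median log2 fold change of the 26 members was 0.14 and 0.20, beside 0.02 and 0.0003 for all genes.

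**Figure D1:**
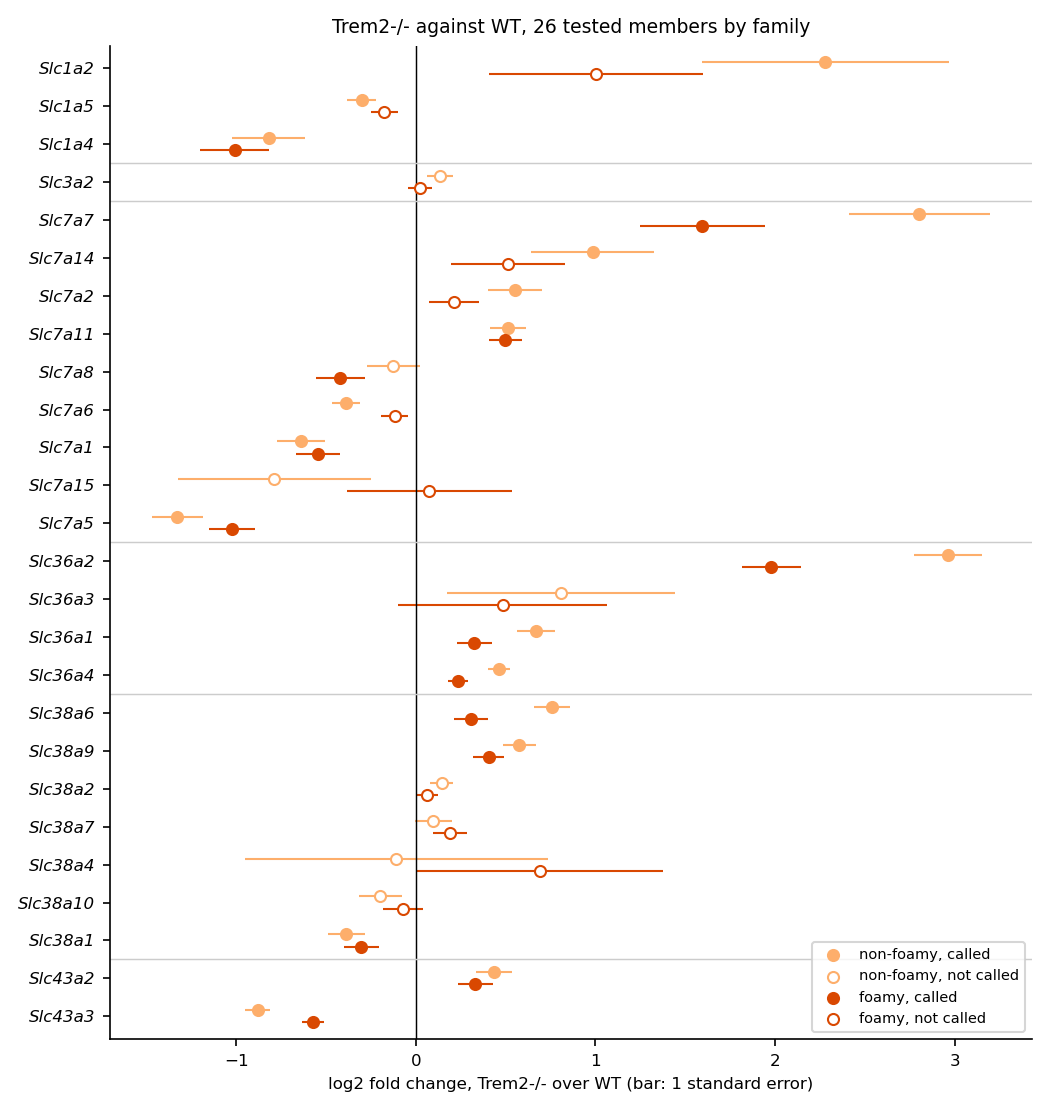
Log2 fold change of Trem2-/- over WT (horizontal axis) for the 26 tested members, grouped by family from Slc1 at the top to Slc43 at the bottom, without cholesterol (light orange) and with it (dark orange). Bars are 1 standard error and filled circles passed an adjusted p of 0.05; Slc36a2 reached 2.96 and 1.98, and Slc7a5 -1.33 and -1.02.

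The direction of the smaller changes depends on the scaling. With total counts alone instead of TMM factors, the median of all genes shifted to -0.13 in both genotype comparisons. The calls became 9 higher against 7 lower in non-foamy cells (43.5% of all genes called), and 4 higher against 7 lower in foamy cells (33.6%). Changes below are relative to the TMM scale. In bulk RNA, more RNA per cell and more cells that express a gene cannot be told apart.

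The heavy chain gene Slc3a2 (chromosome 19, 8706882 to 8723369, minus strand, GRCm38) differed little. Its level was 114, 122, 104 and 121 CPM in WT non-foamy libraries, 127, 130, 115 and 117 in WT foamy, 123, 124 and 132 in Trem2-/- non-foamy, and 127, 133, 125 and 112 in Trem2-/- foamy. The foamy groups overlapped, and the non-foamy groups were separated by less than 1 CPM. The log2 difference between genotypes was 0.13 ± 0.07 (SE, adjusted p = 0.143) without cholesterol and 0.03 ± 0.07 (adjusted p = 0.821) with it, and both turned negative with total counts alone (-0.01 and -0.10).

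Its light chain partner Slc7a5 (LAT1, the importer of large neutral amino acids such as leucine, chromosome 8, 121881150 to 121907694) fell. It stood at 38.5, 40.5, 29.3 and 47.1 CPM in WT non-foamy and at 33.0, 30.6, 27.9 and 35.1 CPM in WT foamy libraries. In Trem2-/- cells it stood at 12.4, 17.2 and 17.0 CPM without cholesterol and at 17.3, 16.4, 15.7 and 12.8 CPM with it. Every Trem2-/- library was below every WT library. The log2 fold change was -1.33 ± 0.14 (adjusted p = 8.82e-08) in non-foamy and -1.02 ± 0.13 (adjusted p = 2.54e-06) in foamy cells, and the call held in every alternative tried on it at the same fold threshold.

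The cystine and glutamate exchanger Slc7a11 (xCT), whose promoter is printed above, rose. Its level was 15.2, 13.8, 12.8 and 14.0 CPM in WT non-foamy, 16.5, 15.1, 16.1 and 16.7 CPM in WT foamy, 16.9, 22.1 and 20.9 CPM in Trem2-/- non-foamy, and 22.3, 21.97, 21.3 and 25.5 CPM in Trem2-/- foamy libraries. Within each treatment the genotypes did not overlap. The log2 fold change was 0.51 ± 0.10 (adjusted p = 0.000217) without and 0.50 ± 0.09 (adjusted p = 0.000243) with cholesterol.

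Slc7a7 (y+LAT1, which exports cationic amino acids in exchange for neutral ones, chromosome 14, 54369442 to 54417780) was scarce in WT cells. It was at 0.311, 0.870, 0.0880 and 0.245 CPM in WT non-foamy and at 0.652, 0.660, 0.550 and 0.944 CPM in WT foamy libraries, which is 2 to 33 counts. In Trem2-/- cells it was at 2.19, 3.68 and 2.22 CPM without and at 2.20, 2.23, 2.28 and 1.78 CPM with cholesterol. All 7 Trem2-/- libraries were above all 8 WT libraries. The log2 fold change was 2.80 ± 0.39 (adjusted p = 4.27e-06) and 1.59 ± 0.35 (adjusted p = 0.00125). Without WT non-foamy replicate 2, the highest of its group, the first value was 3.52. Of its exon bases, 7.0% overlap Oxa1l on the other strand, whose part in the result was not tested. Genes on the other strand also overlap 9.18% of the exon bases of Slc43a2 (Gm45606) and 6.95% of those of Slc7a2 (Gm26584). Their part in the results for these 2 members, given below, was not tested either.

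Slc7a6 (y+LAT2), the most abundant light chain per length, was 65.0 ± 5.92 CPM (SD, n = 4) in WT non-foamy and 49.7 ± 2.23 (n = 3) in Trem2-/- non-foamy libraries. These groups did not overlap, and the log2 fold change was -0.39 ± 0.08 (adjusted p = 0.000354). In foamy cells its difference was -0.12 ± 0.07 (adjusted p = 0.236). Slc7a8 (LAT2, another carrier of neutral amino acids) fell in foamy cells, by 0.42 ± 0.14 on the log2 scale (adjusted p = 0.0219). That call was lost without Trem2-/- foamy replicate 4 (adjusted p = 0.0894), without WT foamy replicate 1 (0.0881) and without the 3 libraries that stand apart (0.066). Without those 3 libraries Slc7a8 was called in non-foamy cells instead (-0.25, adjusted p = 0.0174), where all libraries gave -0.13 (adjusted p = 0.525).

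Because light chains share the heavy chain, their RPKM were also added up within each library, over Slc7a5, Slc7a6, Slc7a7, Slc7a8, Slc7a10 and Slc7a11. In WT cells the sum was 30.8 ± 4.24 (SD, n = 4) without and 28.9 ± 2.29 (n = 4) with cholesterol. In Trem2-/- cells it was 21.9 ± 1.40 (n = 3) and 23.0 ± 2.10 (n = 4). Slc3a2 divided by this sum was 1.07 ± 0.08, 1.20 ± 0.09, 1.64 ± 0.07 and 1.53 ± 0.03 in the same order. All Trem2-/- libraries (1.499 to 1.71) were above all WT libraries (0.985 to 1.31). The make-up of the sum differed too. Slc7a5 gave 31.8% to 36.5% of it in WT non-foamy and 28.1% to 31.9% in WT foamy libraries, but 16.5% to 20.7% in Trem2-/- non-foamy and 17.2% to 19.4% in Trem2-/- foamy libraries. Slc7a11 gave 2.89% to 4.39% in WT and 5.97% to 9.12% in Trem2-/- libraries. These are RNA shares and carry no test, and the amount of protein was not measured.

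**Figure D2:**
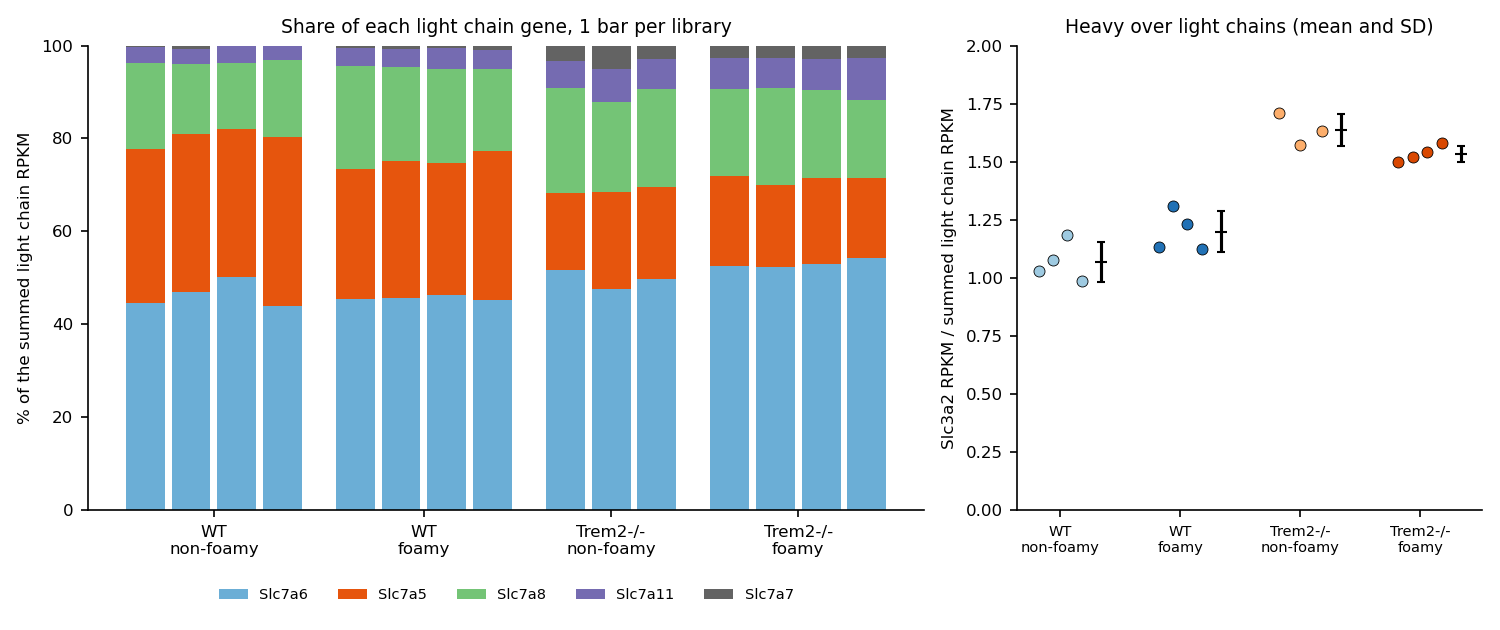
Left, the share of each light chain gene in the summed light chain RPKM (vertical axis, %) with 1 bar per library. Right, Slc3a2 RPKM divided by that sum for each library (points), with the mean and SD of each group beside them. The Trem2-/- libraries lie at 1.499 to 1.71 and the WT libraries at 0.985 to 1.31.

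The carriers of cationic amino acids moved in opposite directions. Slc7a1 (CAT1, the broadly expressed arginine and lysine importer) was 66.5, 68.8, 45.9 and 79.4 CPM in WT non-foamy, 70.5, 61.7, 50.05 and 60.4 in WT foamy, 39.4, 40.2 and 46.4 in Trem2-/- non-foamy, and 40.7, 45.0, 44.6 and 35.9 in Trem2-/- foamy libraries. Only WT non-foamy replicate 3, at 45.9 CPM, lay among Trem2-/- libraries of its treatment. Slc7a1 fell by 0.64 ± 0.13 (adjusted p = 0.000425) and by 0.55 ± 0.12 (adjusted p = 0.0015) on the log2 scale. Slc7a2 (CAT2, the carrier tied to arginine use in activated macrophages) was 7.09 ± 1.55 CPM (SD, n = 4) in WT non-foamy and 10.6 ± 1.22 (n = 3) in Trem2-/- non-foamy libraries, a log2 difference of 0.55 ± 0.15 (adjusted p = 0.00444) that was not called with total counts alone (0.0713). With cholesterol its difference was 0.21 ± 0.14 (adjusted p = 0.27), and it was called there without the 3 libraries that stand apart (0.33, adjusted p = 0.0347). Slc7a14, a relative of this group, was higher in Trem2-/- non-foamy cells at 0.99 ± 0.34 on the log2 scale (adjusted p = 0.0231). It had only 19 to 55 counts a library. Leaving out any of 4 libraries (WT non-foamy replicates 2 and 4, Trem2-/- non-foamy replicates 1 and 3) raised the adjusted p to between 0.0595 and 0.0924. Slc7a15, with 5 to 34 counts a library, was not called between genotypes (adjusted p = 0.251 without and 0.926 with cholesterol).

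In the Slc1 family, both exchangers of small neutral amino acids were lower. Slc1a4 (ASCT1, for alanine, serine and cysteine), whose promoter is printed above, was 6.74, 7.05, 3.83 and 6.80 CPM in WT non-foamy, 5.12, 5.82, 3.73 and 5.07 in WT foamy, 3.59, 3.50 and 3.38 in Trem2-/- non-foamy, and 3.23, 2.23, 2.28 and 2.04 in Trem2-/- foamy libraries. The genotypes did not overlap within either treatment, although WT non-foamy replicate 3 lay far below the rest of its group. The log2 fold change was -0.82 ± 0.20 (adjusted p = 0.00216) and -1.01 ± 0.19 (adjusted p = 0.000338). Slc1a5 (ASCT2, the main glutamine exchanger) was 106, 107, 88.9 and 112 CPM in WT non-foamy against 82.6, 84.3 and 85.0 CPM in Trem2-/- non-foamy libraries, with no overlap. It fell by 0.30 ± 0.08 (adjusted p = 0.00436) there, and its difference in foamy cells was -0.18 ± 0.07 (adjusted p = 0.0812). That difference was called with total counts alone (-0.31, 0.0264) and without Trem2-/- foamy replicate 3 (-0.22, 0.0424). Without the 3 libraries that stand apart it shrank to -0.07 (adjusted p = 0.347). Slc1a2 (GLT-1, the glial glutamate transporter) was near the detection limit, with 2 to 4 counts in WT non-foamy and 14 to 18 in Trem2-/- non-foamy libraries. Its log2 fold change there was 2.28 ± 0.69 (adjusted p = 0.00971), while 2 to 14 counts in WT foamy and 4 to 18 in Trem2-/- foamy libraries overlapped. Slc1a2 passed the filter on low counts only through the Trem2-/- libraries, where it was high, so its call is not independent of the filter. It is counted among the 11 higher members and the 4 with a log2 change of 1 or more in non-foamy cells.

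In the Slc36 family of amino acid carriers, 3 of 4 tested members rose in both genotype comparisons. Of all tested genes, 21% rose without and 14.3% with cholesterol. Slc36a1 (PAT1, found on lysosomes), Slc36a2 (PAT2) and Slc36a4 (PAT4, with high affinity for proline and tryptophan) were higher in Trem2-/- cells, and Slc36a3, with 0 to 20 counts a library, was not called (adjusted p = 0.321 and 0.578). The summed level of the family was 81.8 to 88.4 CPM in WT non-foamy, 93.8 to 97.7 in WT foamy, 122 to 133 in Trem2-/- non-foamy and 116 to 125 in Trem2-/- foamy libraries. Slc36a3, Slc36a2 and Slc36a1 lie next to each other on chromosome 11, between 55124815 and 55236330 on GRCm38, and Slc36a4 lies on chromosome 9.

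Slc36a2 (chromosome 11, 55158470 to 55185077, minus strand) had the largest log2 difference of all members in both genotype comparisons with all libraries, and Slc7a7 had a larger one in non-foamy cells without WT non-foamy replicate 2 (3.52 against 2.88). Its level was 0.908, 0.870, 1.01 and 1.41 CPM in WT non-foamy libraries and 2.78, 1.71, 1.86 and 1.69 CPM in WT foamy libraries. In Trem2-/- cells it was 7.87, 8.44 and 8.67 CPM without and 7.64, 7.92, 7.53 and 8.84 CPM with cholesterol. The Trem2-/- libraries lay far above all WT libraries, and the WT foamy libraries were all above the WT non-foamy ones. The genotype difference was 7.80-fold in non-foamy cells (log2 2.96 ± 0.19, adjusted p = 4.03e-11) and 3.94-fold in foamy cells (log2 1.98 ± 0.17, adjusted p = 8e-09).

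Slc36a4, the most abundant of the family per length, was 71.0, 73.2, 69.7 and 73.6 CPM in WT non-foamy, 79.3, 81.2, 77.5 and 79.6 in WT foamy, 97.3, 107 and 93.1 in Trem2-/- non-foamy, and 92.4, 91.4, 91.5 and 98.8 in Trem2-/- foamy libraries. All Trem2-/- libraries were above all WT libraries. It rose by 0.46 ± 0.06 (adjusted p = 1.57e-06) and 0.24 ± 0.06 (adjusted p = 0.00254) on the log2 scale. Slc36a1 rose by 0.67 ± 0.11 (adjusted p = 2.36e-05) and 0.33 ± 0.10 (adjusted p = 0.015). In foamy cells neither Slc36a4 (0.11, adjusted p = 0.204) nor Slc36a1 (0.20, adjusted p = 0.206) was called with total counts alone, and Slc36a1 was not called without WT foamy replicate 2 (0.27, adjusted p = 0.0621).

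**Figure D3:**
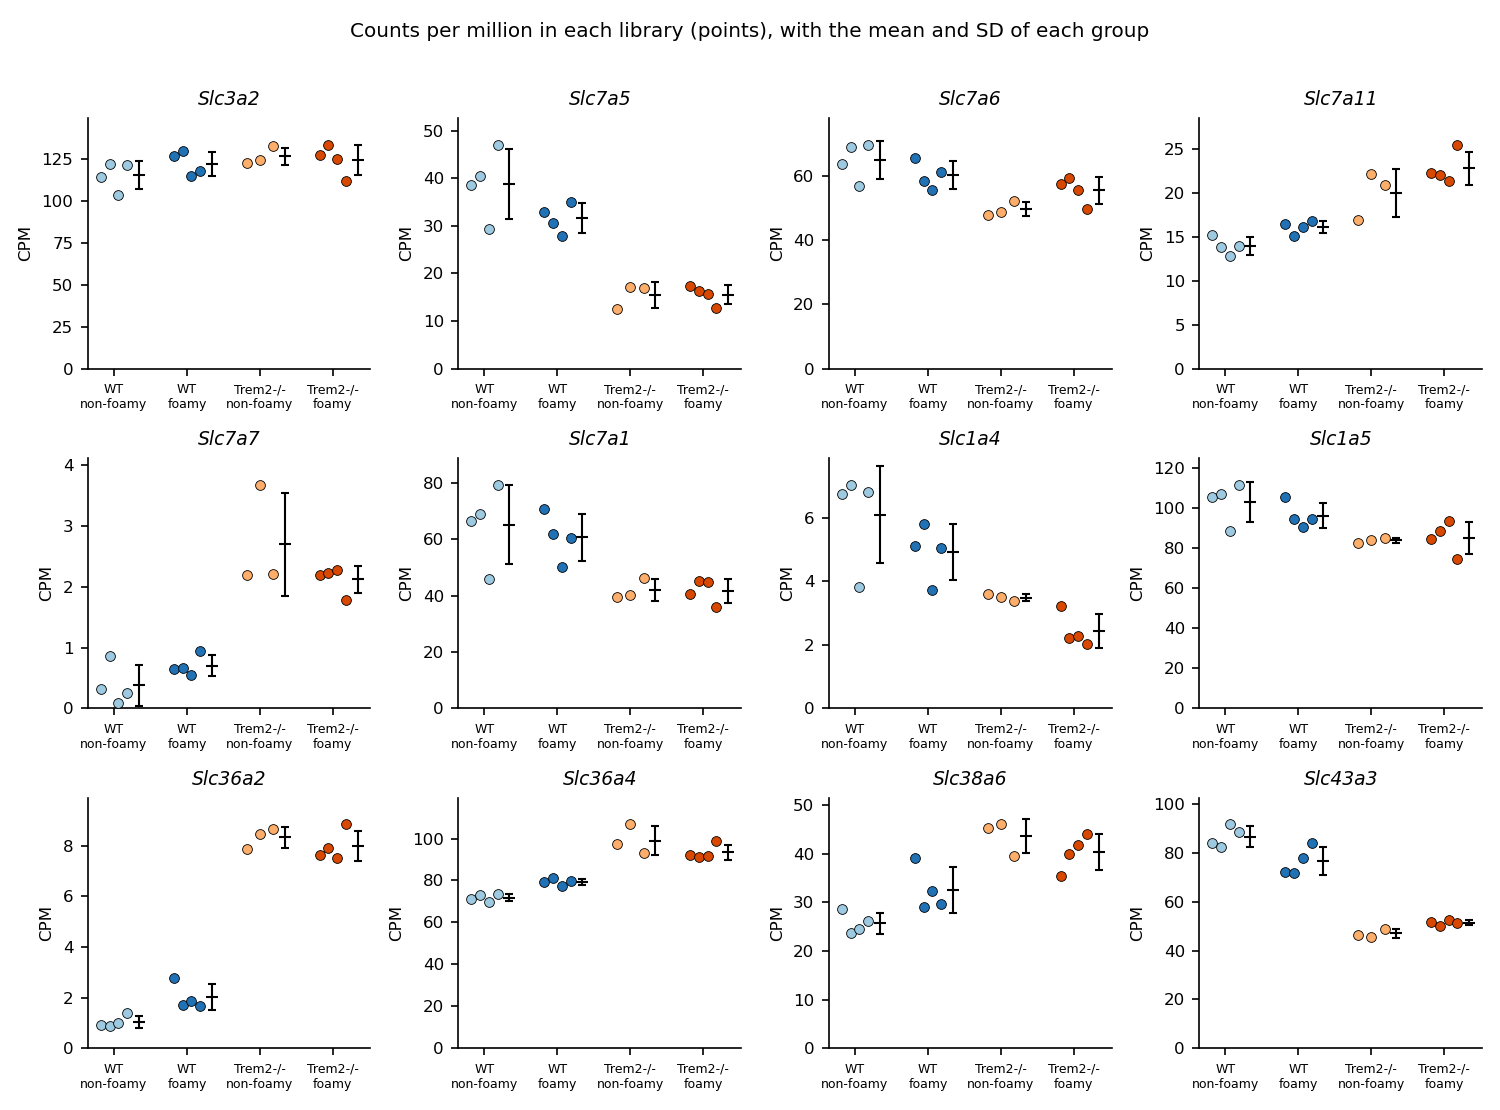
CPM of 12 members in each library (points, vertical axis from 0), with the mean and SD of each group as bars to the right of the points, for both genotypes without and with cholesterol. For Slc36a2 the WT libraries lie at 0.870 to 2.78 CPM and the Trem2-/- libraries at 7.53 to 8.84 CPM.

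In the Slc38 family of sodium-coupled and lysosomal carriers of neutral amino acids, 7 members were tested and 3, or 42.9%, were called in each genotype comparison, beside 43.6% and 30.2% of all genes. Slc38a9, the lysosomal arginine sensor that feeds mTORC1, was 22.9, 21.1, 21.1 and 23.4 CPM in WT non-foamy, 24.9, 23.4, 25.9 and 20.5 in WT foamy, 32.1, 33.9 and 33.1 in Trem2-/- non-foamy, and 28.4, 29.6, 31.6 and 35.9 in Trem2-/- foamy libraries. All Trem2-/- libraries were above all WT libraries, and the gene rose by 0.58 ± 0.09 (adjusted p = 2.17e-05) and 0.41 ± 0.09 (adjusted p = 0.000907) on the log2 scale. Slc38a6 was 28.6, 23.8, 24.5 and 26.1 CPM in WT non-foamy and 45.3, 46.0 and 39.6 CPM in Trem2-/- non-foamy libraries, which did not overlap (log2 0.76 ± 0.10, adjusted p = 2.01e-06). In foamy cells WT foamy replicate 1 (39.2 CPM) exceeded Trem2-/- foamy replicate 1 (35.4 CPM), and the difference was 0.31 ± 0.09 (adjusted p = 0.0153). That call was lost with total counts alone and without any of 3 foamy libraries (Trem2-/- replicate 4, WT replicates 2 and 4), with adjusted p of 0.0554 to 0.251. Of the 50-base stretches of Slc38a6, 35.5% also occur in other genes, mostly Noct, so its counts depend on how shared reads were assigned.

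Slc38a1 (SNAT1, a glutamine importer) fell in both comparisons, by 0.39 ± 0.11 (adjusted p = 0.0045) and 0.30 ± 0.10 (adjusted p = 0.0199) on the log2 scale. In WT cells its level was 107 ± 17.5 CPM (SD, n = 4) without and 100.3 ± 8.31 CPM (n = 4) with cholesterol. In Trem2-/- cells it was 81.9 ± 3.27 CPM (n = 3) and 81.2 ± 9.43 CPM (n = 4). The call in foamy cells was lost without Trem2-/- foamy replicate 4 (adjusted p = 0.0847) and without WT foamy replicate 1 (0.0636). Slc38a2 (SNAT2), the most abundant of the family per length and the carrier that cells typically raise when starved of amino acids, was 204, 230, 214 and 249.4 CPM in WT non-foamy and 250.8, 250.9 and 242 CPM in Trem2-/- non-foamy libraries, and the groups overlapped. Its difference was 0.14 ± 0.06 (adjusted p = 0.08) there and 0.06 ± 0.06 (adjusted p = 0.488) in foamy cells, where the sign turned with total counts alone (-0.07). It was called without WT non-foamy replicate 4 (0.20, adjusted p = 0.0179). Slc38a7, a lysosomal glutamine and asparagine exporter, was at 0.10 ± 0.10 and 0.19 ± 0.09 (adjusted p = 0.478 and 0.138). Slc38a10 was at -0.20 ± 0.12 and -0.07 ± 0.11 (adjusted p = 0.188 and 0.669). Without the 3 libraries that stand apart, Slc38a10 fell in non-foamy cells (-0.29, adjusted p = 0.000528), while Slc38a7 rose in foamy cells (0.26, adjusted p = 0.0289). Slc38a4 had 0 to 14 counts a library and was not called.

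The 2 tested members of Slc43 went opposite ways. Slc43a3, whose product carries purine nucleobases rather than amino acids despite its family, was 84.0, 82.2, 91.6 and 88.5 CPM in WT non-foamy, 72.2, 71.7, 78.0 and 83.8 in WT foamy, 46.5, 45.6 and 48.9 in Trem2-/- non-foamy, and 51.8, 50.1, 52.7 and 51.1 in Trem2-/- foamy libraries. The genotypes were far apart in both treatments. It fell by 0.88 ± 0.07 (adjusted p = 5.65e-10) and 0.57 ± 0.06 (adjusted p = 2.71e-07) on the log2 scale. Slc43a2 (LAT4, which exports branched-chain amino acids, phenylalanine and methionine) was 39.5 ± 6.78 CPM (SD, n = 4) and 45.8 ± 4.42 CPM (n = 4) in WT cells without and with cholesterol. In Trem2-/- cells it was 53.7 ± 1.18 CPM (n = 3) and 57.6 ± 4.77 CPM (n = 4), and the genotypes did not overlap within either treatment. It rose by 0.43 ± 0.10 (adjusted p = 0.00143) and 0.33 ± 0.10 (adjusted p = 0.0104), and neither was called with total counts alone (0.0955 and 0.233).

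The third comparison asked how WT cells responded to cholesterol. Of the 26 tested members 1, Slc36a2, rose in WT foamy against WT non-foamy cells, where 2.8% of all tested genes were called (1.66% higher). It rose 1.89-fold (log2 0.92 ± 0.19, adjusted p = 0.0101), every WT foamy library lay above every WT non-foamy library, and without WT foamy replicate 1, the highest of its group, the log2 fold change was 0.72. The call was lost when only the WT groups were fitted (0.93, adjusted p = 0.108). An unadjusted p under 0.05 was found for 9 members, beside 16.4% of all genes, and no member reached a log2 change of 1 (background 0.105%). The next nearest to the threshold were Slc38a6 (0.34 ± 0.09, adjusted p = 0.0547), Slc43a3 (-0.18 ± 0.06, adjusted p = 0.112) and Slc36a1 (0.29 ± 0.10, adjusted p = 0.132). Libraries did not overlap for 3 members, Slc36a2, Slc36a4 and Slc38a6, all higher in foamy cells (background 9.71%, and 4.56% for higher alone).

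The WT response was wider once the 3 libraries that stand apart were left out, a choice made after seeing the data. Then 7 of 26 members were called, beside 8.69% of all tested genes (5.05% higher and 3.64% lower). Slc36a2 rose (log2 0.70, adjusted p = 0.0288), and 6 members fell: Slc7a5 (-0.43, adjusted p = 0.00645), Slc7a1 (-0.32, adjusted p = 0.00661), Slc38a10 (-0.29, adjusted p = 0.00441), Slc38a1 (-0.24, adjusted p = 0.0132), Slc1a5 (-0.21, adjusted p = 0.00927) and Slc7a6 (-0.21, adjusted p = 0.0198). Of the other carriers of arginine and glutamine named above, Slc7a2 (0.07, adjusted p = 0.811) and Slc38a2 (0.03, adjusted p = 0.82) were not called. With all 15 libraries the log2 differences of the 6 lay between -0.30 and -0.10, and none was called. Of the libraries left out, WT non-foamy replicate 3 was the lowest of its group for 16 members and WT foamy replicate 1 the highest for 12. Leaving them out by itself lowers the WT response of such members, so these calls are not independent of the choice.

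The fourth comparison asked the same of Trem2-/- cells, and no member was called in Trem2-/- foamy against Trem2-/- non-foamy cells by edgeR or by DESeq2. Across all tested genes 0.14% were called. An unadjusted p under 0.05 was found for 1 member, Slc1a4, beside 6.45% of all genes (log2 -0.51 ± 0.21, adjusted p = 0.704). Its foamy libraries all lay below its non-foamy libraries, and those of Slc43a3 lay above (0.13 ± 0.07, adjusted p = 0.791), while the other 24 members overlapped (background for no overlap 9.26%). Slc36a2, at -0.06 ± 0.16 (adjusted p = 0.977), stayed at its high Trem2-/- level. Again no member was called without the 3 libraries that stand apart, beside 0.896% of all genes.

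Whether the responses differed between the genotypes was tested as their difference in the same fit. It was called for 1 member, Slc36a2 (log2 -0.98 ± 0.25, adjusted p = 0.0322), where 3.64% of all tested genes were called (1.64% lower). An unadjusted p under 0.05 was found for 7 members, beside 17.3% of all genes, and none reached a log2 difference of 1 with a call (background 0.316%). The call for Slc36a2 was not stable. Leaving out any 1 of 9 libraries raised its adjusted p to between 0.0529 and 0.0766, with the difference between -1.02 and -0.78. Slc43a3 (0.31 ± 0.09, adjusted p = 0.0554) and Slc38a6 (-0.45 ± 0.14, adjusted p = 0.0683) lay just outside the threshold. Without the 3 libraries that stand apart, 10 members were called beside 10.8% of all genes (5.54% lower and 5.23% higher): Slc36a2, Slc36a4 and Slc38a6, with a lower response in Trem2-/- cells, and Slc7a1, Slc7a5, Slc7a6, Slc1a5, Slc38a1, Slc38a10 and Slc43a3, with a higher one. As leaving out these libraries by itself lowers the WT response of some members (above), the calls for a higher response are not independent of the choice.

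**Figure D4:**
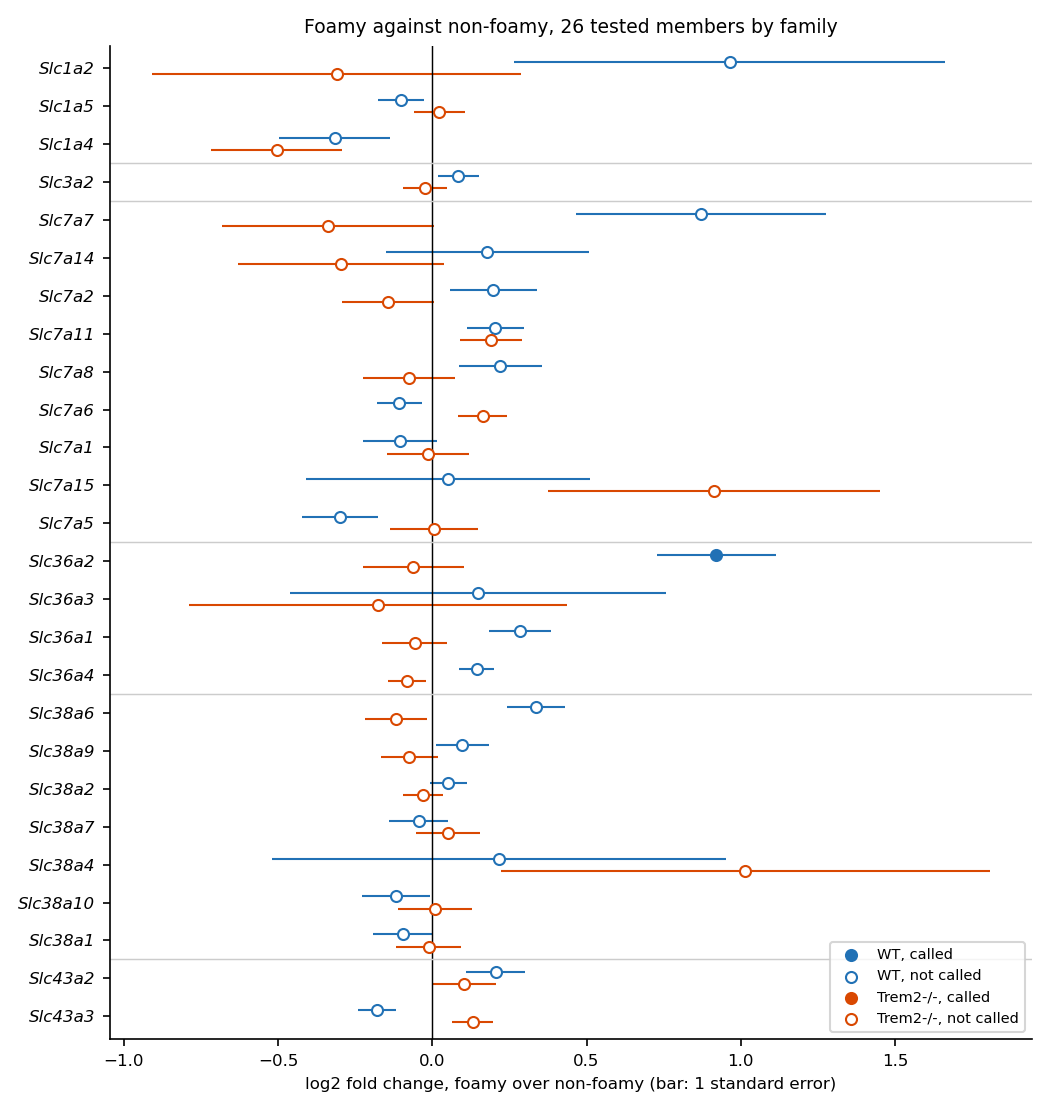
Log2 fold change of foamy over non-foamy cells (horizontal axis) for the 26 tested members in WT (blue) and Trem2-/- (orange) cells, grouped by family. Bars are 1 standard error and filled circles passed an adjusted p of 0.05; only Slc36a2 in WT cells is filled, at 0.92.

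A further 4 lists, also chosen with earlier results of these data known, place the transporters among the genes they work with. Of 34 other carriers of amino acids and related compounds, 22 were tested. In Trem2-/- cells 10 rose and 4 fell without cholesterol, while 7 rose and 5 fell with it. That is 63.6% and 54.5% called, beside 43.6% and 30.2% of all genes. With total counts alone these became 7 higher and 9 lower, and 3 higher and 8 lower (43.5% and 33.6% of all genes called). Without the 3 libraries that stand apart they were 10 higher and 8 lower, and 9 higher and 3 lower (50.4% and 32% of all genes called). The lysosomal sialic acid carrier Slc17a5 rose by 0.98 ± 0.07 (adjusted p = 1.71e-10) without and 0.49 ± 0.06 (adjusted p = 3.88e-06) with cholesterol. It also rose in WT cells with cholesterol (0.33 ± 0.06, adjusted p = 0.00595), as did the creatine carrier Slc6a8 (0.30 ± 0.08, adjusted p = 0.0352). The glycine carrier Slc6a9, at a mean of 1.14 CPM, fell in both genotype comparisons (log2 -1.07 and -1.19, adjusted p = 0.0384 and 0.0224).

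Of 30 genes of the amino acid response through ATF4, 28 were tested, and 19 fell and 5 rose in Trem2-/- non-foamy cells. In foamy cells 19 fell and 4 rose. Of all genes, 22.6% fell and 21% rose in the first comparison, and 15.9% and 14.3% in the second. Their median log2 fold change was -0.64 and -0.29, beside 0.02 and 0.0003 for all genes. Mthfd2, a mitochondrial folate enzyme, was 60.9 ± 0.760 CPM (SD, n = 4) in WT non-foamy and 21.5 ± 2.71 (n = 3) in Trem2-/- non-foamy libraries, a log2 fold change of -1.51 ± 0.08 (adjusted p = 3.16e-12). Asns, the asparagine synthetase, fell by 0.99 ± 0.07 (adjusted p = 1.75e-10), Psat1 of serine synthesis by 0.73, Tars, a tRNA ligase, by 0.66 and the secreted protein gene Stc2 by 1.15. The 5 that rose were Ddit3, Atf3, Atf5, Ddit4 and Nupr1, of which Ddit3, Atf3 and Atf5 encode stress transcription factors (all but Atf3 named after their values were seen). In WT cells with cholesterol, Mthfd2, Asns, Psat1 and Tars fell and Atf3 rose, where 2.8% of all genes were called. Once the 3 libraries that stand apart were left out, 12 of the list fell and 1 rose, where 3.64% of all genes fell and 5.05% rose. As those libraries were chosen after seeing the data, these calls are not independent of that choice. The members that are themselves known targets of ATF4 did not move as 1 group, since Slc7a5 and Slc1a4 fell in both genotype comparisons, Slc1a5 fell in non-foamy cells alone, Slc7a11 rose in both, and Slc3a2 and Slc38a2 were called in neither.

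Of 39 genes of lysosomal amino acid sensing for mTORC1, 36 were tested, and 9 rose and 12 fell without cholesterol, while 9 rose and 6 fell with it. That is 58.3% and 41.7% called, beside 43.6% and 30.2% of all genes. With total counts alone these became 8 higher and 14 lower, and 5 higher and 13 lower (43.5% and 33.6% of all genes called). Without the 3 libraries that stand apart, a choice made after seeing the data, 4 rose in WT cells with cholesterol (5.05% of all genes). With all libraries 1 rose (1.66%). Fnip2, a partner of folliculin at the lysosome, rose most in non-foamy cells (log2 1.02 ± 0.09, adjusted p = 2.81e-09), and it rose in WT cells with cholesterol (0.42 ± 0.08, adjusted p = 0.00543). Of 11 genes of glutathione synthesis and use, the pathway that cystine taken up by Slc7a11 feeds, 7 were tested. Gclc, Gclm, Gsr and Gpx4 fell in Trem2-/- non-foamy cells and Gclc and Gclm in foamy cells. That is 57.1% and 28.6% called, beside 43.6% and 30.2% of all genes. These genes are named here after their values were seen. With total counts alone the counts were 6 and 2 of the list (43.5% and 33.6% of all genes called). Without the 3 libraries that stand apart, the count in foamy cells was 1 (32% of all genes called). Gclc, the catalytic subunit of the rate-limiting enzyme, fell by 0.67 ± 0.09 (adjusted p = 2.78e-06) and 0.57 ± 0.08 (adjusted p = 1.89e-05) on the log2 scale.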

How the data were processed

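RNA of 15 BV2 libraries was prepared with TRIzol and RNeasy kits and TruSeq libraries. Per the study's methods the reads were trimmed with Trimmomatic, aligned with HISAT2 to GRCm38 and counted per Ensembl gene with featureCounts, and the authors deposited the raw count per gene for each library. Strand use and the treatment of reads that match several genes are not given in the sources used here. In every library 82.7% to 83.9% of counts from 1 to 10 were even numbers and of those of 1000 or more 49.3% to 51.4% were, and whether a count stands for a read or a fragment was not tested.

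The members and gene lists were chosen with earlier results of these data known. Genes were tested with edgeR 4.0.16 (glmQLFit and glmQLFTest) in R 4.3.3, with TMM factors, filterByExpr at a minimum count of 10, 1 mean per group over all 15 libraries, and Benjamini-Hochberg adjustment over 14237 genes. A call is an adjusted p under 0.05. CPM used TMM-scaled totals, and RPKM used the exon length of each gene in GENCODE M21 (GRCm38). Every member was accounted for, and those called in any comparison or at a mean of at least 20 CPM could be given by library. From each list, genes were named where called with a log2 change of 1 or more in size between genotypes, or called in a response to cholesterol. The fit was tested on simulated data. The alternatives were DESeq2 1.42.0, other scalings and filters, the compared groups alone, a replicate block and leaving out libraries.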

Additional observations from a re-analysis of the deposited data

Results flagged for a closer look

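Within groups of 4 libraries, 78 sets of values of tested members were examined, and in 5 of them 1 library lay further from the rest than Dixon's critical value for 4 values allows, where chance gives about 1 in 20. Slc1a4 was at 3.83 CPM in WT non-foamy replicate 3, against 6.74 to 7.05 CPM in the other 3. Slc7a7 was at 1.78 CPM in Trem2-/- foamy replicate 4, against 2.20 to 2.28. Slc36a2 was at 2.78 CPM in WT foamy replicate 1, against 1.69 to 1.86. Slc36a4 was at 98.8 CPM in Trem2-/- foamy replicate 4, against 91.4 to 92.4. Slc38a4, at 4 to 6 counts a library, was at 0.176 CPM in WT non-foamy replicate 3, against 0.129 to 0.134. All 5 values belong to the 3 libraries that stand apart over all genes, of which WT non-foamy replicate 3 was the shallowest, and the part of depth in them was not tested. The response of Slc36a2 to cholesterol differed between the genotypes by -0.98 on the log2 scale (edgeR's quasi-likelihood test, adjusted p = 0.0322), being 0.92 in WT and -0.06 in Trem2-/- cells.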

How the results depend on the processing

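Of the 34 values called for single members, 23 were called under every alternative tried on them at the same fold threshold (15 of 18 between non-foamy genotypes, 8 of 14 between foamy genotypes, and neither Slc36a2 value of the cholesterol comparisons). The WT response (1 member) became 3 with DESeq2, 3 with no filter on low counts, 2 with at least 10 counts in every library, 0 with only the groups compared, 1 to 3 on leaving out 1 library and 7 without the 3 libraries that stand apart. The difference between the responses (1 member) became 3 with DESeq2, 2 with total counts alone, 2 with no filter, 2 with at least 10 counts in every library, 0 to 3 on leaving out 1 library and 10 without the 3 libraries. With a log2 change of 1 or more as a further condition, 0 members passed in the WT response, 4 in each genotype comparison and 0 in the difference. Without WT foamy replicate 4 both counts were 3. The WT response was 2 without WT non-foamy replicate 2 or 3. The difference was 2 without Trem2-/- foamy replicate 4, and 0 without Trem2-/- foamy replicate 1, 2 or 3, any Trem2-/- non-foamy library, WT foamy replicate 1 or WT non-foamy replicate 1.

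Signs that turned were all of values not called. With total counts alone Slc3a2 was -0.0098 (non-foamy) and -0.10 (foamy), Slc38a2 -0.070 (foamy) and Slc38a7 -0.048 (non-foamy). On leaving out 1 library, Slc3a2 in foamy cells ranged from -0.0100 to 0.072, and Slc38a10 in foamy cells from -0.16 to 0.028; without the 3 libraries Slc38a10 was 0.11. Total counts alone lost Slc7a2 and Slc43a2 in non-foamy and Slc36a1, Slc36a4, Slc38a6 and Slc43a2 in foamy cells, with all signs kept.

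Same-numbered libraries did not deviate together (r of -0.25 to 0.37 over 21 pairs, 3 of them over 0.1, and 4 of 15 libraries correlated best with their own number), so the numbers were not used for pairing. With the replicate block, the genotype comparisons called 19 and 14 members, the WT response 1 and the difference 0. Among single members the block lost Slc36a2 in the difference (-1.04, adjusted p = 0.0529) and called Slc38a2 between non-foamy genotypes (0.18, adjusted p = 0.0304), and it changed no other call of those tried. Halving all counts, tried after seeing the data, kept the counts of calls within 1.5 times. Members below 1 RPKM, other than Slc7a2 (115 to 392 counts a library), rest on few counts, which limits what could be seen for them.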
